A study of Homo sapiens and synthetic construct with 52 samples.

Results

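The guides described here are the 95 single guide RNAs of the human CRISPRi V2 library whose names carry 1 of 18 gene symbols of mitochondrial ATP synthase, out of 103074 guides against 18788 genes, 1895 of them non-targeting controls. They were chosen by gene symbol alone: all 18 symbols were found, each with 5 guides, except ATP5A1 with 10 guides at 2 start sites. K562 cells, an established chronic myeloid leukemia line, carried dCas9-KRAB, a catalytically dead Cas9 fused to a repressor domain that silences transcription where a guide directs it. Cells were infected with a newly cloned copy of the library (LGR) or with the publicly distributed copy of the same guides (legacy), and the guides were counted by sequencing. No RNA was measured, so the knockdown of each target was not checked.

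The survival screens used the LGR library. At 1000-fold cell coverage, 3 samples taken after 7 days of growth (Tf) were compared with 1 sample taken at the start (T0), and at 100-fold coverage 4 Tf samples were compared with 2 T0 samples. The dasatinib screens used the LGR and the legacy library at 100-fold coverage. In each, 2 samples received 0.75 nM dasatinib, an inhibitor of BCR-ABL1 and other tyrosine kinases, for 72 h and 2 samples received 0.01% DMSO, all followed by 6 days without drug, and 2 further samples were taken at T0. DMSO against T0 gave the growth comparison over 9 days, and dasatinib against DMSO the drug comparison. In these screens T0 was taken 7 days after infection, following selection with puromycin, so loss before then is not part of the comparisons. The replicates of a dasatinib screen came from a single infection per library and are technical. The paper also describes replicates of the 100-fold survival screen as technical. The labels do not say whether the 1000-fold samples came from separate infections. In every comparison the edgeR p-values therefore measure the spread between these samples only.

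ATP synthase uses the proton gradient across the inner mitochondrial membrane to make ATP. Protons pass through a ring of c subunits in the membrane, the ring turns a central stalk inside the catalytic F1 head, and a peripheral stalk holds the head still. Supernumerary subunits in the membrane join the enzyme into dimers, an inhibitor protein blocks its reverse reaction, and assembly factors act as chaperones of the F1 head. In a dropout screen, a guide that slows growth loses share among the counted guides.

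The guide names give a strand and the position of the PAM, the short motif beside a target, on hg19, the build in the submitters' notes. Within a gene the guides are numbered here by that position. The 5 guides of a start site spanned 21 bp for ATP5I, 30 bp for ATPAF2 and 98 bp for ATP5H, and up to 733 bp for ATP5J. The ATP5I guides have PAMs from 668011 to 668032 on chromosome 4, 3 on the - strand and 2 on the + strand, so targets on the same strand overlap in part. All guides of ATP5D, ATP5J and ATPAF2 lie on the + strand. Exon and intron annotation of hg19 was not used here.

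CRISPRi acts at the promoter, so promoter sequences are shown for 3 genes whose guides lost share in each growth comparison (ATP5C1, ATP5F1, ATP5I) and for ATP5G1, none of whose guides passed the test in any comparison. They are RefSeq sequences on GRCh38.p14, from 250 bases before to 50 bases after the start, and their coordinates cannot be set against the hg19 positions of the guides. Capitals mark matches on either strand to the ETS core CCGGAAG or to the NRF1 motif (GCGC, any base, TGCGC), both common in promoters of nuclear genes for mitochondrial proteins.
ATP5C1 (ATP5F1C), chr10:7787927-7788226, + strand: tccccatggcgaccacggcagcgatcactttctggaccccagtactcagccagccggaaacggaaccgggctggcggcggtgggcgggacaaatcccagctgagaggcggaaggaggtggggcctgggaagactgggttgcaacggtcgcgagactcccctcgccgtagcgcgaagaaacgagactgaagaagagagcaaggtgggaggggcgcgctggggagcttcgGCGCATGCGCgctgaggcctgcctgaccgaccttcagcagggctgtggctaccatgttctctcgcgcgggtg
ATP5F1 (ATP5PB), chr1:111449214-111449513, + strand: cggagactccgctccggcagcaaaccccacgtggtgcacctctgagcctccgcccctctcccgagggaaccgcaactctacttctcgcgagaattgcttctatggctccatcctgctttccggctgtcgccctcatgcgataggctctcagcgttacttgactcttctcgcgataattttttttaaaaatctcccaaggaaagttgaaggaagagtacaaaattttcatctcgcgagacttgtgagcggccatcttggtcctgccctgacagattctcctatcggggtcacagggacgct
ATP5I (ATP5ME), chr4:674227-674526, - strand: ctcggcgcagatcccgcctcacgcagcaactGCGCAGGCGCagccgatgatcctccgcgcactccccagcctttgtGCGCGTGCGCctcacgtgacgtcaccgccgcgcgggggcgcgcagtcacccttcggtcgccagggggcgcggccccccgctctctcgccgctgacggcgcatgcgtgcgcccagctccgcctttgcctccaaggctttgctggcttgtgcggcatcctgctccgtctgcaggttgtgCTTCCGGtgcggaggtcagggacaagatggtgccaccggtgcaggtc
ATP5G1 (ATP5MC1), chr17:48892537-48892836, + strand: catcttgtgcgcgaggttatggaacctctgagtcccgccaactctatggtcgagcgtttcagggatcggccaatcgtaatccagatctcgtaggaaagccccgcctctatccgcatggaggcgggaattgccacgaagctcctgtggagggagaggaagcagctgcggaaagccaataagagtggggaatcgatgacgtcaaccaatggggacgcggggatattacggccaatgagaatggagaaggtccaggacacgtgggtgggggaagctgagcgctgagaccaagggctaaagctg

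Of the 18 genes, 14 matched 21 RefSeq promoters, and ATP5B, ATP5D, ATP5G3 and ATP5J2 are named only. The ETS core was present in 6 of the 21 promoters, belonging to ATP5A1, ATP5H, ATP5I, ATP5J and ATP5L, against 10.3% of all 35116 promoters of that length. The NRF1 motif was present in 3 of the 21, those of ATP5C1, ATP5I and ATP5O, against 5.78% of all promoters.

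The 1000-fold samples held 105684438 to 111002750 counts each, the 100-fold survival samples 47678549 to 54678272, and the samples of the dasatinib screens 16051155 to 19844033 with the LGR library and 15739255 to 18526437 with the legacy library. In the plasmid pool, the 95 guides held 1142 to 2333 counts in the LGR library and 379 to 7709 in the legacy library. The ratio of their 90th to their 10th percentile was 1.54 in the LGR plasmid, sequenced on a HiSeq, and 3.52 in the legacy plasmid, sequenced on a NextSeq. Over all guides of each it was 1.92 and 5.11. Library and instrument cannot be told apart in this plasmid pair. The paper reports a NextSeq for the screening samples of both libraries. At T0 of the dasatinib screens the members' ratio was 2.04 and 1.98 with LGR and 4.04 and 4.58 with legacy. Over all guides it was 2.53 and 2.51 with LGR and 6.17 and 6.18 with legacy. Replicate samples correlated over all guides (Pearson r of log2 CPM) at 0.975 to 0.977 for 1000-fold Tf and 0.828 to 0.852 for 100-fold Tf, and at 0.655 for LGR dasatinib and 0.823 for legacy dasatinib.

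Together the 95 guides took 0.0849 to 0.0863% of the counts in the 1000-fold Tf samples, against 0.107% at T0. At 100-fold coverage they took 0.0803 to 0.0889% in the Tf samples and 0.106 and 0.107% at T0. In the LGR dasatinib screen they took 0.0758 and 0.0752% in DMSO, against 0.102% in both T0 samples, and in the legacy screen 0.0723 and 0.0725% in DMSO, against 0.0983 and 0.1001% at T0. Every Tf and DMSO sample was below its T0 samples.

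Guides against ATP synthase lost share in each growth comparison. A guide is called here at an adjusted p under 0.05 by edgeR's quasi-likelihood test with Benjamini-Hochberg adjustment over all guides of the library. Of the 95 guides, 36 fell in the 1000-fold survival screen (9.07% of all guides fell), 24 in the 100-fold screen (5.68% of all), 33 in LGR growth (7.42% of all) and 33 in legacy growth (6.88% of all). None rose except 1 guide in legacy growth, where 0.62% of all guides rose, against 1.08%, 0.0437% and 0.535% in the other three. The median log2 fold change of the members was -0.11 at 1000-fold, -0.11 at 100-fold, -0.33 in LGR growth and -0.37 in legacy growth, and that of all guides tested lay between 0.01 and 0.03 in the 4 comparisons. In the same order, the test called 51 of 1890, 7 of 1889, 32 of 1890 and 39 of 1866 non-targeting guides. Without LGR T0 replicate 1, 21 guides were called lower in LGR growth (3.28% of all).

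The calls lay in a part of the genes. All 24 guides called at 100-fold coverage were among the 36 called at 1000-fold, where they made up 66.7%, and LGR and legacy growth shared 29 of the 33 guides called in each. In all 4 growth comparisons 24 guides were called lower, 4 each of ATP5B and ATP5F1, 3 each of ATP5C1, ATP5E and ATP5I, 2 each of ATP5A1 and ATP5O, and 1 each of ATP5H, ATP5J2 and ATP5L. In at least 1 of the 4, 41 guides were called, and none of ATP5G1, ATP5G3, ATP5J, ATPIF1 or ATPAF1 was. These overlaps were not counted over all guides, so whether they are particular to the members was not tested.

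A gene phenotype was set as the mean log2 change of a gene's 3 strongest guides less the median of the non-targeting guides, and called by setting its guides against the non-targeting ones in an exact Mann-Whitney test, adjusted over all genes. These p-values take guides, not samples, as units, and each SD is over the Tf or DMSO samples only. At 1000-fold coverage 9 of the 18 genes were called lower (7.9% of all genes), at 100-fold 6 (7.23% of all), in LGR growth 9 (6.79% of all) and in legacy growth 9 (6.13% of all). None was called higher, against 0.133%, 0.0852%, 0.117% and 0.123% of all genes. ATP5C1, ATP5E, ATP5F1, ATP5I and ATP5J2 were called lower in all 4. Of these calls, ATP5C1 lost that at 100-fold without Tf replicate 1 and that in legacy growth without DMSO replicate 2. ATP5E lost that in LGR growth without DMSO replicate 2 or T0 replicate 1, and that in legacy growth without DMSO replicate 2 or T0 replicate 2, and ATP5J2 lost that at 100-fold without Tf replicate 2. The members' median phenotype was -0.892, -0.998, -1.26 and -1.56 in that order of comparisons, against -0.05, -0.11, -0.11 and -0.13 over all genes. At 100-fold coverage edgeR on counts summed per gene, which takes samples as units, called 10 members lower, adding ATP5A1, ATP5B, ATP5H and ATP5O to the 6.

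In the F1 head, guides against 4 of its 5 subunits lost share, and those against ATP5D mostly did not. Of its 30 guides, 15 fell at 1000-fold coverage, 12 at 100-fold, 13 in LGR growth and 14 in legacy growth. ATP5C1 encodes the gamma subunit, the central stalk that turns in the head. Its guide 3 (PAM 7830168 of chromosome 10, + strand) had 2.75, 1.75 and 2.84 CPM in the 1000-fold Tf samples, against 15.5 CPM at T0. At 100-fold coverage it had 1.11, 1.44, 1.21 and 1.55 CPM in Tf, against 13.1 and 10.9 CPM at T0. Every Tf sample lay far below every T0 sample at both coverages. The log2 fold changes were -2.71 (SE 0.162, edgeR adjusted p = 8.37e-19) and -3.19 (SE 0.329, edgeR adjusted p = 1.47e-06), the strongest of any member guide in both survival screens.

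The growth comparisons of the dasatinib screens gave the same guide 1.08 and 0.926 CPM in LGR DMSO, against 11.5 and 8.57 CPM at LGR T0. It had 0.687 and 0.349 CPM in legacy DMSO, against 9.18 and 5.21 CPM at legacy T0. Other ATP5C1 guides gave unlike values. Guide 2 (PAM 7830158, opposite strand) changed by -2.15, -2.11, -3.14 and -1.11 on the log2 scale in the 4 comparisons, all called. Guide 5 (PAM 7830547) was not called in any and lay between -0.40 and 0.13. The part of guide position in these values was not tested. The ATP5C1 phenotype was -1.92 ± 0.208 (SD, n = 3) at 1000-fold and -2.19 ± 0.089 (SD, n = 4) at 100-fold.

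ATP5B encodes the beta subunit, which carries the catalytic sites. Guide 3 (PAM 57039709 of chromosome 12, - strand) had 2.19, 3.02 and 2.76 CPM in 1000-fold Tf, against 12.5 CPM at T0. In LGR growth it had 0.783 and 0.405 CPM in DMSO, against 7.21 and 9.19 CPM at T0, a log2 fold change of -3.78 (SE 0.448, edgeR adjusted p = 1.2e-06). In legacy growth it had 0.745 and 0.581 CPM in DMSO, against 7.07 and 8.69 CPM at T0. The groups did not overlap in these comparisons. Guides 2 to 5 of ATP5B were called lower in all 4 growth comparisons, and guide 1, whose PAM at 57039359 is the farthest from the others, in none, with log2 fold changes between -0.11 and 0.49. The phenotype was -2.07 ± 0.143 (SD, n = 3) at 1000-fold coverage, -2.91 ± 0.060 (SD, n = 2) in LGR growth and -3.17 ± 0.215 (SD, n = 2) in legacy growth, called in each, although the 1000-fold call was lost without Tf replicate 1 and the legacy call without DMSO replicate 1. At 100-fold it was -2.22 ± 0.142 (SD, n = 4) and missed the threshold (exact Mann-Whitney adjusted p = 0.136), although 4 of its 5 guides passed the test per guide there.

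ATP5A1 encodes the alpha subunit of the head and has guides at 2 start sites some kilobases apart on chromosome 18. At P1, 3, 2, 3 and 3 of the 5 guides fell in the 4 growth comparisons, and at P2 none fell in any. The P1 phenotype was -1.33, -1.45, -2.07 and -2.96 and the P2 phenotype -0.11, -0.11, 0.13 and -0.16. Guide 9, at P1, had 4.20, 4.30 and 3.80 CPM in 1000-fold Tf, against 12.5 CPM at T0, and guide 1, at P2, 8.12, 8.20 and 8.51 CPM in Tf, against 8.41 CPM at T0. Guide 9 fell in all 4 comparisons, by up to 3.80 on the log2 scale in legacy growth.

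ATP5E, the small epsilon subunit of the central stalk, had 3 guides called lower in all 4 comparisons and a phenotype of -1.43 ± 0.079 (SD, n = 3) at 1000-fold coverage. Its guide 4 had 7.41, 6.79 and 7.86 CPM in Tf, against 18.8 CPM at T0, and its guide 5 stayed within 0.10 of 0 on the log2 scale in the 4 comparisons. For ATP5D, the delta subunit of the central stalk, guide 1 had 4.92, 5.24 and 5.33 CPM in 1000-fold Tf, against 6.87 CPM at T0 (log2 fold change -0.46, SE 0.158, edgeR adjusted p = 0.0497). That guide was also called in legacy growth at -1.17, its 4 others in no growth comparison, and the gene phenotype, from -0.61 to -0.24, was called in none. The ATP5D call at 1000-fold was lost without TMM scaling, without the filter on low counts, and without Tf replicate 1 or 2.

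Of the guides against the c ring, 1 was called in the growth comparisons. ATP5G1, ATP5G2 and ATP5G3 are separate genes whose mature protein, the ring subunit, is the same. Of their 15 guides 1 fell at 1000-fold coverage and none in the other 3 growth comparisons, and their gene phenotypes lay between -0.35 and 0.47. The farthest from 0 was ATP5G3 guide 4 in legacy growth, higher by 1.71 on the log2 scale at few counts (SE 0.587, edgeR adjusted p = 0.0776, not called). Guide 1 of ATP5G2 had 10.3, 9.47 and 9.86 CPM in 1000-fold Tf, against 12.1 CPM at T0 (log2 fold change -0.34, SE 0.115, edgeR adjusted p = 0.0431). At 100-fold coverage it had 7.68, 14.3, 16.3 and 11.4 CPM in Tf, against 11.3 and 8.32 CPM at T0, so the groups overlapped. Its call at 1000-fold was lost without TMM scaling and without Tf replicate 2. Summed over its 5 guides, ATP5G1 had 55.5, 50.8 and 51.7 CPM in 1000-fold Tf, against 52.9 CPM at T0, and 62.8 and 60.9 CPM in LGR DMSO, against 56.0 and 55.4 CPM at LGR T0.

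The peripheral stalk split gene by gene. ATP5F1 encodes subunit b, which spans from the membrane to the head. All 5 of its guides fell at 1000-fold coverage and in LGR growth, and 4 of them at 100-fold and in legacy growth. Summed over the 5 guides, ATP5F1 had 22.2, 19.4 and 22.0 CPM in 1000-fold Tf, against 55.6 CPM at T0. The sums were 8.49 and 7.64 CPM in LGR DMSO, against 48.9 and 45.9 CPM at LGR T0, and 11.3 and 12.3 CPM in legacy DMSO, against 43.2 and 37.04 CPM at legacy T0. Its phenotype of -3.34 ± 0.443 (SD, n = 2) in LGR growth was the lowest of the 18 genes there (exact Mann-Whitney adjusted p = 1.28e-08).

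ATP5H encodes subunit d of the stalk, and 1 of its guides was called. Guide 4 (PAM 73043037 of chromosome 17, + strand) had 3.24, 2.68 and 3.93 CPM in 1000-fold Tf, against 16.8 CPM at T0, and 1.20 and 1.91 CPM in LGR DMSO, against 13.2 and 10.7 CPM at LGR T0. It fell by 2.40, 2.01, 2.94 and 3.14 on the log2 scale in the 4 growth comparisons. The 4 other guides, whose PAMs lie within the same 98 bp, were called in none and ranged from -0.30 to 0.32 in the 3 LGR comparisons and from -0.89 to -0.19 in legacy growth, where all 5 guides lay below 0, 3 of them at an unadjusted p under 0.05. Summed over the 5 guides, ATP5H averaged 22.0 CPM in legacy DMSO, against 42.6 CPM at legacy T0. The gene phenotype, -0.92 ± 0.097 (SD, n = 3) at 1000-fold, was called only in legacy growth (-1.69), and that call was lost without legacy DMSO replicate 1. With edgeR on summed counts the gene was called lower at 1000-fold and 100-fold coverage and in legacy growth, and not in LGR growth.

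For ATP5O, the subunit that joins stalk and head, guides 4 and 5 fell in all 4 comparisons. Guide 4 had 0.630 and 1.28 CPM in legacy DMSO, against 11.1 and 12.8 CPM at legacy T0 (log2 fold change -3.65, SE 0.369, edgeR adjusted p = 1.78e-08). Its phenotype was called at 1000-fold (-0.87 ± 0.019, SD, n = 3) and in legacy growth (-2.41), and the 1000-fold call was lost without Tf replicate 1 or 3. None of the 5 guides against ATP5J, subunit F6 of the same stalk, was called in any comparison. Summed over them, ATP5J had 60.7, 61.5 and 60.7 CPM in 1000-fold Tf, against 55.4 CPM at T0, and 67.9 and 64.0 CPM in LGR DMSO, against 58.2 and 61.0 CPM at LGR T0.

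The supernumerary subunits of the membrane part, ATP5I (subunit e), ATP5J2 (subunit f) and ATP5L (subunit g), had 12 of 15 guides called lower at 1000-fold coverage, 5 at 100-fold, 11 in LGR growth and 8 in legacy growth. ATP5I and ATP5J2 were called as genes in all 4 comparisons, and ATP5L in the 3 LGR comparisons. Guide 3 of ATP5I had 2.60, 2.17 and 3.11 CPM in 1000-fold Tf, against 9.73 CPM at T0. It had 0.482 and 0.463 CPM in LGR DMSO, against 6.85 and 7.24 CPM at LGR T0, the strongest change in LGR growth (log2 fold change -3.89, SE 0.472, edgeR adjusted p = 1.64e-06). Guide 4 of ATP5I had 3 counts in all in legacy DMSO, against 153 at legacy T0, a ratio of 0.0206 with a 95% exact interval of 0.0042 to 0.0613 that covers counting error only.

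ATP5I guides with PAMs close together gave unlike values. Guide 5 (PAM 668032, + strand) changed by -0.23, -0.52, -0.87 and -0.41 on the log2 scale in the 4 comparisons, called only in LGR growth, whereas guide 4 (PAM 668029, - strand) fell by 1.70, 1.83, 2.87 and 5.50. The ATP5I phenotype was -1.78 ± 0.250 (SD, n = 3), -2.26 ± 0.348 (SD, n = 4), -3.14 ± 0.251 (SD, n = 2) and -3.92 ± 0.164 (SD, n = 2). The legacy value was the lowest of the 18 genes there.

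For ATP5J2, guide 4 had 0.482 and 0.752 CPM in LGR DMSO, against 5.74 and 7.68 CPM at LGR T0, and 3.84 and 2.50 CPM in legacy DMSO, against 29.0 and 27.7 CPM at legacy T0. The guide was more abundant at legacy T0 than at LGR T0 and fell in both libraries, by 3.43 and 3.17 on the log2 scale. ATP5L guide 4 had 4.23, 3.62 and 2.78 CPM in 1000-fold Tf, against 9.97 CPM at T0, and its gene phenotype was -0.96 ± 0.076 (SD, n = 3). At 100-fold coverage the ATP5L call (adjusted p = 0.0432, exact Mann-Whitney) was lost without any 1 of Tf replicates 2, 3 and 4 or T0 replicate 2, and in legacy growth its phenotype of -1.37 was not called (adjusted p = 0.167, exact Mann-Whitney).

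ATPIF1, the inhibitor that binds the F1 head when the membrane potential fails, had no guide called lower in any comparison. Its guide 1 (PAM 28562662 of chromosome 1, - strand) rose in legacy growth, with 14.1 and 13.2 CPM in DMSO, against 7.56 and 8.52 CPM at T0 (log2 fold change 0.76, SE 0.233, edgeR adjusted p = 0.0397). In LGR growth it had 13.7 and 13.8 CPM in DMSO, against 9.93 and 12.5 CPM at T0 (0.28, SE 0.214, not called), and at 1000-fold 16.8, 16.2 and 14.4 CPM in Tf, against 12.8 CPM at T0 (0.25, SE 0.106, not called). Over its 5 guides the libraries ran opposite ways: 4 lay below 0 in LGR growth, where the phenotype was -0.36 ± 0.347 (SD, n = 2), and all 5 above 0 in legacy growth, where it was 0.38 ± 0.00074 (SD, n = 2). Neither phenotype was called, and the difference was not tested per gene. The legacy call of guide 1 was lost when scaling rested on the non-targeting guides, and without legacy DMSO replicate 1 or either legacy T0 sample.

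Of the assembly factors, ATPAF1, the chaperone of the beta subunit, had no guide called in any comparison, and its phenotype in the 4 growth comparisons lay between -0.20 and 0.19. ATPAF2, the chaperone of the alpha subunit, was called lower as a gene in LGR growth at -0.80 ± 0.128 (SD, n = 2), a call lost without any 1 of LGR DMSO replicate 1, DMSO replicate 2 and T0 replicate 2. In legacy growth its phenotype was -1.44 ± 0.037 (SD, n = 2) and was not called (adjusted p = 0.233, exact Mann-Whitney). Its guide 5 had 4.82 and 5.21 CPM in LGR DMSO, against 12.5 and 8.13 CPM at LGR T0, and 2.29 and 3.31 CPM in legacy DMSO, against 8.47 and 11.9 CPM at legacy T0, and was called lower in both. None of the ATPAF2 guides was called in the survival screens, where guide 5 changed by -0.04 and -0.06 on the log2 scale.

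Some members lie close to another gene targeted by the library. Guides of another gene had PAMs within 1000 bp of guides of ATP5C1 (KIN), ATP5F1 (WDR77), ATP5H (KCTD2), ATP5I (MYL5), ATP5J (GABPA), ATP5J2 (PTCD1 and the readthrough gene ATP5J2-PTCD1) and ATPAF2 (GID4). WDR77, a subunit of the PRMT5 methyltransferase complex whose guides come within 69 bp of those of ATP5F1, was itself called lower in all 4 growth comparisons, with phenotypes of -2.02 ± 0.087 (SD, n = 3), -2.25 ± 0.214 (SD, n = 4), -4.45 ± 0.846 (SD, n = 2) and -1.58 ± 0.148 (SD, n = 2). ATP5J2-PTCD1 was called lower in both survival screens (-0.63 and -0.87) and in legacy growth (-3.34). In 1000-fold survival, 100-fold survival, LGR growth and legacy growth, 4, 1, 4 and 5 of its 6 guides were called lower. PTCD1 had 2, 0, 2 and 2 of 3 guides called lower in the same order and was called as a gene in none. For KIN and for MYL5, 1 of 5 guides was called in each growth comparison and the gene in none, and no guide of KCTD2, GABPA or GID4 was called. The part of these neighbours in the values of ATP5F1 and ATP5J2 was not tested.

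Other genes of oxidative phosphorylation were also called lower in each growth comparison, and none was called higher. Complex I, which pumps protons with electrons from NADH, had 9, 14, 8 and 7 of 36 genes called in 1000-fold survival, 100-fold survival, LGR growth and legacy growth, with median phenotypes of -0.36, -0.51, -0.49 and -0.52. Complex III had 4, 3, 3 and 3 of 9, and Complex IV 5, 3, 3 and 2 of 11. The lowest values at 1000-fold coverage were -3.17 for NDUFA2 in Complex I, -1.83 for UQCRC1 in Complex III and -0.86 for COX7C in Complex IV. Of 10 partners of ATP synthase, carriers and small associated proteins, only SLC25A3, the mitochondrial phosphate carrier, was called, at -0.92 in 100-fold survival and -1.06 in LGR growth. The V-ATPase, the rotary proton pump of lysosomes, had 5, 6, 5 and 4 of 22 genes called, with ATP6V1A at -7.75 at 1000-fold, far below any ATP synthase member. The share of ATP synthase genes called was not tested against those of the other lists.

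No member guide passed the edgeR test of a difference between coverages or between libraries. None of the 95 was called for a change at 100-fold that differed from that at 1000-fold coverage (0% of all guides were). None was at an unadjusted p under 0.05 (1.29% of all guides were) or by DESeq2. The differences between coverages ranged from -0.83 to 0.66 on the log2 scale with a median SE of 0.343. As no guide of the whole library was called, the absence of calls does not show that the changes were alike. For growth in the LGR against the legacy library none was called, where 0.144% of all guides were, while 12 had an unadjusted p under 0.05 (9.6% of all guides had), 6 in each direction, and DESeq2 called 2. The lowest adjusted p was that of ATP5G3 guide 4 (edgeR, 0.0519), with 11.3 and 12.2 CPM in LGR DMSO, against 17.6 and 16.1 CPM at LGR T0, and 2.41 and 4.30 CPM in legacy DMSO, against 1.40 and 0.616 CPM at legacy T0. DESeq2 called that guide and ATP5O guide 4. Library and transduction cannot be told apart in this comparison.

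Dasatinib against DMSO gave few calls for these guides. In the LGR library none of the 94 guides tested was called lower or higher by edgeR (0.00393% and 0.0954% of all guides were), 12 had an unadjusted p under 0.05 (12% of all guides had), and DESeq2 called 1. In the legacy library 1 of 93 was called lower (0.0349% of all) and none higher (0.572% of all), 17 had an unadjusted p under 0.05 (12.8% of all), and DESeq2 called 3 lower. The median log2 fold change of the members was -0.32 in the LGR and -0.26 in the legacy library, against 0.03 and 0.02 over all guides. Together the 95 guides took 0.0603 and 0.0685% of the counts with dasatinib, against 0.0758 and 0.0752% in DMSO, in the LGR library, and 0.0631 and 0.0587% with dasatinib, against 0.0723 and 0.0725% in DMSO, in the legacy library. The study itself pointed to oxidative phosphorylation genes in these samples, so the list is not independent evidence of a direction here. The drug and growth comparisons of a library also share their DMSO samples, so their members' values are not set against each other.

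The guide called was ATP5G3 guide 2 (PAM 176046225 of chromosome 2, + strand), against a c ring gene. It had 2.16 and 2.10 CPM with dasatinib in the legacy screen, against 21.0 and 22.5 CPM in DMSO (log2 fold change -3.22, SE 0.362, edgeR adjusted p = 0.00564). In the LGR screen it had 1.62 and 2.16 CPM with dasatinib, against 5.96 and 9.38 CPM in DMSO (log2 fold change -1.86, not called). Both dasatinib samples lay below both DMSO samples in either library. The 4 other ATP5G3 guides were not called in either library and ranged from -0.66 to 0.93, and the gene phenotype of -0.65 ± 0.082 (SD, n = 2) in the LGR and -1.07 ± 0.183 (SD, n = 2) in the legacy screen was not called.

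No ATP synthase gene was called with dasatinib, lower or higher, in either library. Of all genes 0.436% were called lower and 0.695% higher in the LGR screen, and 0.511% and 0.705% in the legacy screen. At an unadjusted exact Mann-Whitney p under 0.05 there were 3 of 17 genes scored in the LGR library (8.78% of all genes) and 1 of 18 in the legacy library (9.78% of all). The lowest LGR phenotype was that of ATP5O at -1.29 ± 0.327 (SD, n = 2, exact Mann-Whitney adjusted p = 0.433), with summed counts of 22.1 and 16.0 CPM with dasatinib, against 33.5 and 34.7 CPM in DMSO. In the legacy screen ATP5O was at -0.15 ± 0.189 (SD, n = 2), with 16.8 and 25.1 CPM with dasatinib, against 24.7 and 18.5 CPM in DMSO, so there the groups overlapped. Complex I had 12 of 35 scored genes called lower in the LGR and 10 of 36 in the legacy screen, with NDUFS8 lowest at -2.35 and -3.39, and COX4I1 of Complex IV was called in both at -1.73 and -2.05. A test of these lists against ATP synthase was not made.

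Guides called lower in growth had few reads left for the drug comparison. Both comparisons use the same DMSO samples, so the low DMSO counts of these guides follow in part from that choice. The 33 guides called lower in LGR growth had a median of 22.0 counts with dasatinib and 33.0 in DMSO, and 22 of them had under 50 counts in DMSO, while the 62 others had medians of 137 and 187 counts. Their median SE was 0.728 on the log2 scale, against 0.422 for the others. In the legacy library the 33 guides had medians of 22.0 counts with dasatinib and 30.5 in DMSO, and a median SE of 0.881, against 0.416 for the others. ATP5F1 had no guide with enough counts for a gene score in the LGR drug comparison, ATP5B had 1 and ATP5I 2. The edgeR test per guide covered 5, 5 and 4 guides of ATP5F1, ATP5B and ATP5I there and called none. How large a change could be detected in these genes at this depth was not tested.

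The number of calls in the drug comparison rose when a dasatinib sample was left out, for all guides as for the members. Without LGR dasatinib replicate 1, 13 member guides were called lower (9.08% of all guides were) and 9 higher (12% of all), and without replicate 2, 11 were called lower (8.51% of all) and 4 higher (11.7% of all), each time with the lone sample assumed to vary like the DMSO pair. In the legacy library 11 were called lower (6.19% of all) and 4 higher (9.71% of all) without dasatinib replicate 1, and 9 lower (6.09% of all) and 3 higher (9.47% of all) without replicate 2. ATPIF1 guide 1 differed widely between replicates, with 41.0 and 5.79 CPM in the 2 legacy dasatinib samples, against 14.1 and 13.2 CPM in DMSO. None of the 95 guides was called for a dasatinib response that differed between the libraries (0.00293% of all guides were). Of the 95, 8 had an unadjusted p under 0.05 (10.1% of all), and DESeq2 called none. The differences between libraries ranged from -2.69 to 4.06 on the log2 scale with a median SE of 0.737. At that spread the absence of calls does not show that the responses were alike.

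A titration of cell coverage was sampled after infection and selection with puromycin. Members without a count appeared there only at 10-fold, the lowest coverage, 0 and 1 of 95 in the 2 LGR samples and 2 and 1 of 95 in the 2 legacy samples. Of all 103074 guides, 468 and 339 were without a count in these LGR samples and 6434 and 4966 in these legacy samples. At 50-fold coverage and above every member guide had at least 26 counts in every sample. Over all guides, 68 to 71 were without a count in those LGR samples and 760 to 909 in those legacy samples. In the plasmid pools 2 guides (LGR, HiSeq) and 770 guides (legacy, NextSeq) were already without a count. The paper attributes most LGR dropouts to guides that start with several G bases, which the NextSeq reads poorly. A smaller loss of share before the titration samples were taken was not tested.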

How the data were processed

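Guide counts were analysed from 40 samples of K562 cells and plasmid pools. The authors counted reads per guide after demultiplexing with bcl2fastq (version not given in the sources used here), and deposited them as raw counts. Guide positions refer to hg19, per the submitters' notes.

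Libraries were scaled by TMM, guides reaching 10 counts in any sample were tested with edgeR 4.0.16 (quasi-likelihood, R 4.3.3), and p-values were adjusted by Benjamini-Hochberg over all guides, with calls at 0.05. Differences between libraries or coverages were tested as interaction terms. CPM are counts scaled to the total of a sample. Gene phenotypes took the mean of the 3 strongest guides, after the methods of the study. The minimum mean of 50 counts in either arm, a count of 0 set to 1 and the choice of the start site of lowest p were set here. The exact two-sided Mann-Whitney test was coded in Python 3.11.15, with mid-ranks where values tied. The lone 1000-fold T0 sample was assumed to vary like the Tf samples. Alternatives were DESeq2 1.42.0, other scaling, filters and scores, a replicate block, and leaving out each sample.

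On data simulated from LGR growth, 57.7% of guides changed by a log2 of -2 were called and 4.38% of those changed by -1, and 100% and 68.0% of such genes. There all guides of a changed gene moved alike, unlike those of many members. The simulation called 0.0167% of unchanged guides, whereas 32 of 1890 non-targeting guides were called in LGR growth itself. These rates therefore cannot be carried over to the members. Named guides were, per comparison, the 5 of largest change in each direction among those called and moving one way in all samples, and each gene's guide of lowest p at 1000-fold. Other guides were named after their values were seen. The members and lists were chosen with earlier results of these data known. Intervals cover counting error only. Small-pool libraries and the LGR plasmid sample from a NextSeq, whose guides are numbered and not named, were not used here.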

Additional observations from a re-analysis of the deposited data

Results flagged for a closer look

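Of 39 groups of 4 samples examined, all of them the 100-fold Tf samples or values made from them, 2 held 1 sample far from the rest, which is about what chance gives at 1 group in 20. The ATP5G2 phenotype was -0.09 in Tf replicate 1 and 0.29, 0.30 and 0.26 in the other three, a gap of 0.901 of the whole range. ATP5A1 guide 8 had 7.13 CPM in Tf replicate 4 and 5.43, 5.27 and 5.35 CPM in the other three, a gap of 0.902 of the range on the log2 scale. All 4 of these CPM values lay below the 10.9 and 11.4 CPM at T0.

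In growth, 4 gene phenotypes lay on one side of 0 in both LGR samples and on the other side in both legacy samples, and the difference was not tested for any of them. The phenotype was 0.15 in LGR and -0.08 in legacy growth for ATP5G1 (difference 0.23), -0.35 and 0.47 for ATP5G3 (difference -0.82), -0.36 and 0.38 for ATPIF1 (difference -0.74), and 0.19 and -0.20 for ATPAF1 (difference 0.40). None of these phenotypes was called in either library.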

How the results depend on the processing

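Of 874 gene phenotypes recomputed under the alternatives, 836 kept their direction and side of the threshold, 20 lost the call, 18 gained one and none reversed. Of 1169 values of named guides, 1137 kept both, 18 lost the call, 13 gained one and 1 reversed. That was ATPIF1 guide 1 with dasatinib in the legacy library, at -1.11 without dasatinib replicate 1 (edgeR adjusted p = 0.0197), against 1.71 without replicate 2 and 0.90 with both.

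At 100-fold survival 10 genes were called lower with a score threshold from pseudo-genes of non-targeting guides and 10 with edgeR on summed counts, against 6. At 1000-fold survival each of these alternatives added ATP5H. In LGR growth summed counts added ATP5O, and the pseudo-gene threshold lost ATPAF2. Among the legacy growth calls, summed counts added ATPAF2, and the pseudo-gene threshold added ATP5L and ATPAF2. In legacy growth no guide was called higher with scaling on the non-targeting guides, and summed counts called 1 gene higher, ATPIF1. With dasatinib in the LGR library DESeq2 called 1 guide lower and a fit with the T0 samples 1, ATP5J guide 4 in both. In the legacy library DESeq2 called 3 guides lower and the fit with T0 samples 6, and 1 gene was called lower with no minimum count (ATP5E) and 1 with summed counts (ATP5G3). DESeq2 called 2 guides as differing in growth between libraries. The cause of these changes was not tested.

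Leaving out 1 sample at a time gave 33 to 35 guides called lower at 1000-fold and 0 to 1 higher, 17 to 25 lower at 100-fold, 21 to 35 lower and 0 to 2 higher in LGR growth, and 25 to 36 lower and 0 to 2 higher in legacy growth. With dasatinib it gave 0 to 13 lower and 0 to 9 higher in the LGR and 1 to 11 lower and 0 to 4 higher in the legacy library, and 0 to 2 guides differing in growth between libraries. Genes called lower ranged from 7 to 9, 4 to 6, 7 to 8 and 7 to 9 in the 4 growth comparisons and stayed at 0 with dasatinib.

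Replicate numbers did not pair the samples: deviations of samples with the same number correlated at 0.00196 in the LGR drug comparison, 0.00087 in the legacy one and 0.00085 at 100-fold survival. With the replicate number as a block, 25 guides were called lower and 2 higher at 100-fold, against 24 and 0, none with dasatinib in the LGR library and 3 lower in the legacy library, against 1.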
